A study of Mus musculus with 6 samples.

Results

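Collagen chain genes encode the alpha chains from which collagen molecules are wound. The group was taken from the array's annotation: every gene whose symbol is written Col, a number, the letter a and a second number, and which has a probe set (a group of short probes read as 1 value) named for it alone. There were 42 such genes among the 18193 genes measured, with 82 of 45037 probe sets, and each gene is given by its probe set with the highest mean over all 6 arrays. By class, 11 genes were fibrillar, 9 were FACIT (fibril-associated collagens with interrupted helices), 6 were type IV chains of basement membranes and 16 were other collagens. The arrays set neonatal tail tip fibroblasts with a *Hotair* knockout (3 arrays) against wild-type ones (3 arrays), on a backcross to C57BL6. *Hotair* makes no protein, and its RNA comes from among the Hoxc patterning genes. The labels describe neither the deletion nor whether the 3 samples of each genotype came from different animals or cultures. The p-values therefore reflect how these samples vary, and that variation may be technical. Values are log2 RMA values, so a difference of 1 is a doubling of the signal, and each gene is compared between genotypes. A gene is called dim where its mean lies below that of the median gene, 6.90, which describes the array signal and is no measure of RNA amounts between genes.

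Collagen alpha chains carry glycine at regular steps and wind around each other into a rope-like helix. Fibroblasts secrete types I, III and V, which assemble into the fibrils that give skin and tendon their strength, and FACIT collagens sit on the surface of those fibrils. Type IV chains instead form a sheet-like net under epithelia and around vessels, muscle and nerve, and type VI forms beaded microfilaments close to the cell surface. The chains of 1 molecule come from separate genes, such as *Col1a1* with *Col1a2*, and *Col4a1* with *Col4a2*.

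Replicate 1 of both genotypes stood apart from the rest. On the leading principal component of all genes, which held 51.7% of the variance, it lay at −59.7 (knockout) and −80.0 (wild type), against 21.9 to 48.7 for the other 4 arrays. On the next component, with 33.1%, knockout replicates 2 and 3 lay at 41.3 and 46.4 and wild-type ones at −56.5 and −50.7. Replicate 1 lay at 5.7 (knockout) and 13.8 (wild type) there, so its genotypes were close together. Leaving it out therefore keeps the arrays whose genotypes lay furthest apart on that component. Knockout replicate 1 also had the highest 3′ minus 5′ difference of control probe sets, a measure of RNA quality, with 0.63 for *Actb* and 0.75 for *Gapdh*, whereas the highest of the other 5 arrays had 0.21 and −0.03. Its part in the results was not tested. Results are therefore also given without replicate 1 of both genotypes, which leaves 2 arrays each. Of the 9 fibroblast markers, 9 had a mean over the 6 arrays above that of the median gene. *Fap* and *Lum* did so through the knockout arrays, with means of 8.12 and 9.26 in knockout and 5.76 and 6.63 in wild type, where the median gene was at 6.90. The median difference of the 9 markers was 1.65, with 6 higher and 3 lower in knockout. *Hotair* itself was not analysed here, since 0 probe sets carried its name, and the genotype labels have no check from it.

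Over all 6 arrays no collagen gene passed the test across all genes. By limma with Benjamini-Hochberg adjustment, 0 of 42 had an adjusted p under 0.05 (smallest 0.743), and the share called over all 18193 genes was likewise 0%. At an unadjusted p under 0.05 there were 4 collagen genes, 9.52% against 6.68% of all genes. *Col3a1* and *Col16a1* were on the higher side, where the share over all genes was 4.01%, and *Col4a1* and *Col4a2* on the lower side, where it was 2.67%. With the replicate number as a block there were 8 at this unadjusted level, or 19%, against 11.1% of all genes, and 0 after adjustment. *Col12a1*, *Col16a1*, *Col6a3* and *Col8a2* were on the higher side, against 6.86% of all genes, and *Col4a1*, *Col4a2*, *Col4a5* and *Col18a1* on the lower side, against 4.23%. Taken by replicate number, 10 collagen genes were higher in knockout in all 3 pairs, or 23.8%, against 17.1% of all genes, and 7 were lower in all 3, or 16.7%, against 13.4%. Among collagen genes 26 differences were positive and 16 negative, and their median was 0.05, where that of all genes was 0.01.

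**Figure D1:**
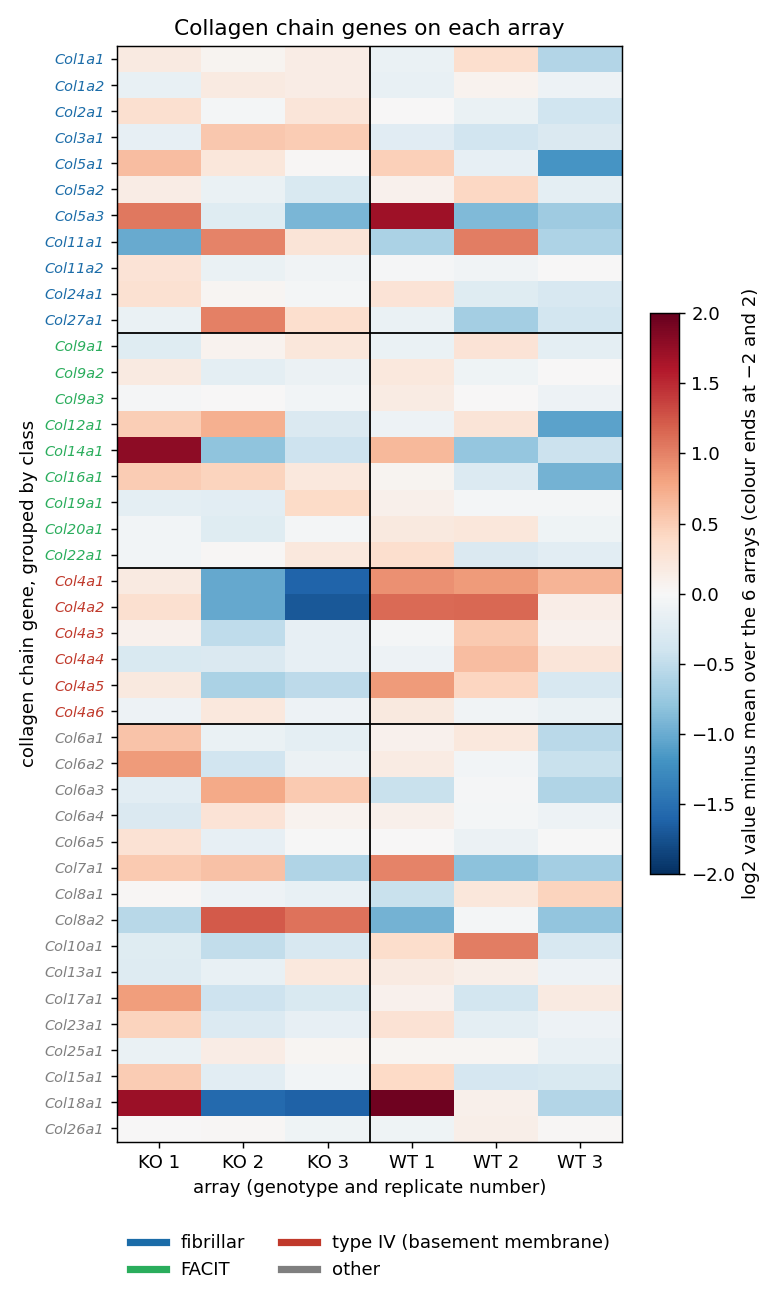
Each cell is 1 gene on 1 array, coloured by its log2 value minus the mean of that gene over the 6 arrays, with the 3 *Hotair* knockout arrays (KO) left of the 3 wild-type arrays (WT) and genes grouped by class. *Col4a1* and *Col4a2* are low in knockout replicates 2 and 3, while *Col18a1* is high in replicate 1 of both genotypes.

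The type IV chains had the lowest median of the 4 classes. Of the 6 chains, 5 were lower in knockout and their median difference was −0.57, against 0.01 for all genes. *Col4a1*, which with *Col4a2* makes the type IV net found in nearly all basement membranes, had 12.70, 11.50 and 10.92 in the 3 knockout arrays, against 13.44, 13.37 and 13.21 in wild type. Every knockout value lay below every wild-type value, and knockout replicate 1 was the nearest to wild type. The difference was −1.64 ± 0.45 (SE, n = 3 each), so that the signal in wild type was 3.11 times that in knockout, but it did not pass (limma adjusted p = 0.743). *Col4a2* had 11.94, 10.60 and 9.93 in knockout, against 12.75, 12.77 and 11.75 in wild type. The groups overlapped, because knockout replicate 1 lay above wild-type replicate 3. The difference of *Col4a2* was −1.60 ± 0.57 (SE, n = 3 each; limma adjusted p = 0.743). By replicate number, *Col4a1* and *Col4a2* were lower in knockout by like amounts: −0.74 and −0.81 in replicate 1, −1.88 and −2.17 in replicate 2, and −2.29 and −1.82 in replicate 3.

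Without replicate 1 both partners fell. *Col4a1* averaged 11.21 in knockout and 13.29 in wild type, a difference of −2.08 ± 0.23 (SE, n = 2 each; limma adjusted p = 0.0103), or a 4.24 times higher signal in wild type. *Col4a2* fell by 2.00 ± 0.40 (SE, n = 2 each; limma adjusted p = 0.0345). This smaller fit called 14% of all genes, and 6.41% of all genes as lower in knockout. *Col4a1* was the 1 collagen gene called when knockout replicate 1 alone was left out (−2.13, limma adjusted p = 0.0488), where 0.478% of all genes were called. Both of its probe sets gave the same difference, −1.64 for the brighter and −1.63 for the other, while *Col4a2* has 1.

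*Col4a1* and *Col4a2* lie head to head and are read in opposite directions from neighbouring start sites. In the RefSeq promoter table of build GRCm38.p6 the 2 start sites are 21 bases apart, at 11312826 for *Col4a1* and 11312805 for *Col4a2*. With *Col4a1* on the minus strand, the first bases of the 2 annotated transcripts overlap, and no gap lies between them. The windows of 250 bases before to 50 after each start therefore overlap by 78 bases, which are given in capitals here. They are shown because these neighbours are the pair of chains with the most negative differences, and they were chr8:11312777-11313076 on the minus strand for *Col4a1* and chr8:11312555-11312854 on the plus strand for *Col4a2*, each written 5′ to 3′.
Col4a1: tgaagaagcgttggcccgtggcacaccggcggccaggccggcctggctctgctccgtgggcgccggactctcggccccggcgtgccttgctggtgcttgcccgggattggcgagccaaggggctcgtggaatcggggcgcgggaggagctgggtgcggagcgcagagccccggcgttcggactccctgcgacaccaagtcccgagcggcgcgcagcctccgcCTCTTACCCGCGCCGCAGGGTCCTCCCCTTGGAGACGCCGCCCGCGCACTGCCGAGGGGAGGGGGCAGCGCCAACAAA
Col4a2: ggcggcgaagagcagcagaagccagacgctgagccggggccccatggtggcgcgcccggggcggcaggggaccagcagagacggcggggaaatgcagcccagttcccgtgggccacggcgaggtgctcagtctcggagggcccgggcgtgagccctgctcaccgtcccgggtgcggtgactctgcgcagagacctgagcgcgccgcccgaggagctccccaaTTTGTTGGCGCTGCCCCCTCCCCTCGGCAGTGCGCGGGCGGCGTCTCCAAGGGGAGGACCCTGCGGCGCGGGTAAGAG

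The capitals of one window are the reverse complement of the capitals of the other. Both windows are rich in G and C, with 74% and 73.7% of bases for *Col4a1* and *Col4a2*, against a median of 52.7% over the 32851 windows of the table. Searched on both strands, both windows hold the letters CCAAT, found in 37.4% of all windows, and GGGCGG, found in 35.7%, and neither holds TATAAA, found in 13.6%. Such a match describes letters and does not show that a factor binds there.

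The other type IV chains were lower by smaller amounts, or did not differ beyond their error. *Col4a5*, an X-linked chain found in kidney, skin and smooth muscle, had 9.06, 8.23 and 8.34 in knockout, against 9.71, 9.30 and 8.55 in wild type. It was lower in knockout within each replicate number, although the groups overlapped, and differed by −0.64 ± 0.37 (SE, n = 3 each; limma adjusted p = 0.821). *Col4a4*, a chain of the mature kidney filter, had 4.23, 4.24 and 4.36 in knockout, against 4.42, 5.15 and 4.77 in wild type. Its groups did not overlap, and it differed by −0.50 ± 0.21 (SE; limma adjusted p = 0.750), but its level was below the median gene. *Col4a3*, the head-to-head neighbour of *Col4a4*, was also dim, with 4.25, 3.67 and 4.01 in knockout and 4.14, 4.70 and 4.26 in wild type, a difference of −0.40 ± 0.23 (SE). *Col4a6*, the neighbour of *Col4a5*, with start sites 1343 bases apart, had 4.28, 4.60 and 4.28 in knockout and 4.57, 4.31 and 4.25 in wild type. The difference of *Col4a6* was 0.01 ± 0.17 (SE), and its other probe set gave −0.02, so it had no settled direction. With arrays centred on their medians it was −0.10, where the median of all genes was −0.100. The probe sets agreed: all of the 2 of *Col4a3*, 3 of *Col4a4* and 2 of *Col4a5* were below 0.

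Type IV collagen is also made by endothelial and smooth muscle cells, whose markers are given here beside it. The 5 endothelial markers were dim, with 0 of 5 above the median gene, and their summed signal on the log2 scale was 6.58 to 6.84 in knockout and 6.68 to 6.92 in wild type. Of the 5 smooth muscle markers 3 lay above it, and they summed to 14.95 to 15.53 in knockout and 15.17 to 15.97 in wild type. The brightest of them, the contractile proteins *Acta2* and *Tagln*, were at −0.25 and −0.65. *Cnn1*, another such protein, was at 1.55 and rose by 3.05 without replicate 1 (limma adjusted p = 0.00533), but in replicate 1 it was at −1.45. It was the 1 smooth muscle marker of 5 that passed without replicate 1, against 14% of all genes. The part of these markers in the type IV values was not tested. In samples of many cells, fewer cells of a type and less RNA per cell cannot be told apart.

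**Figure D2:**
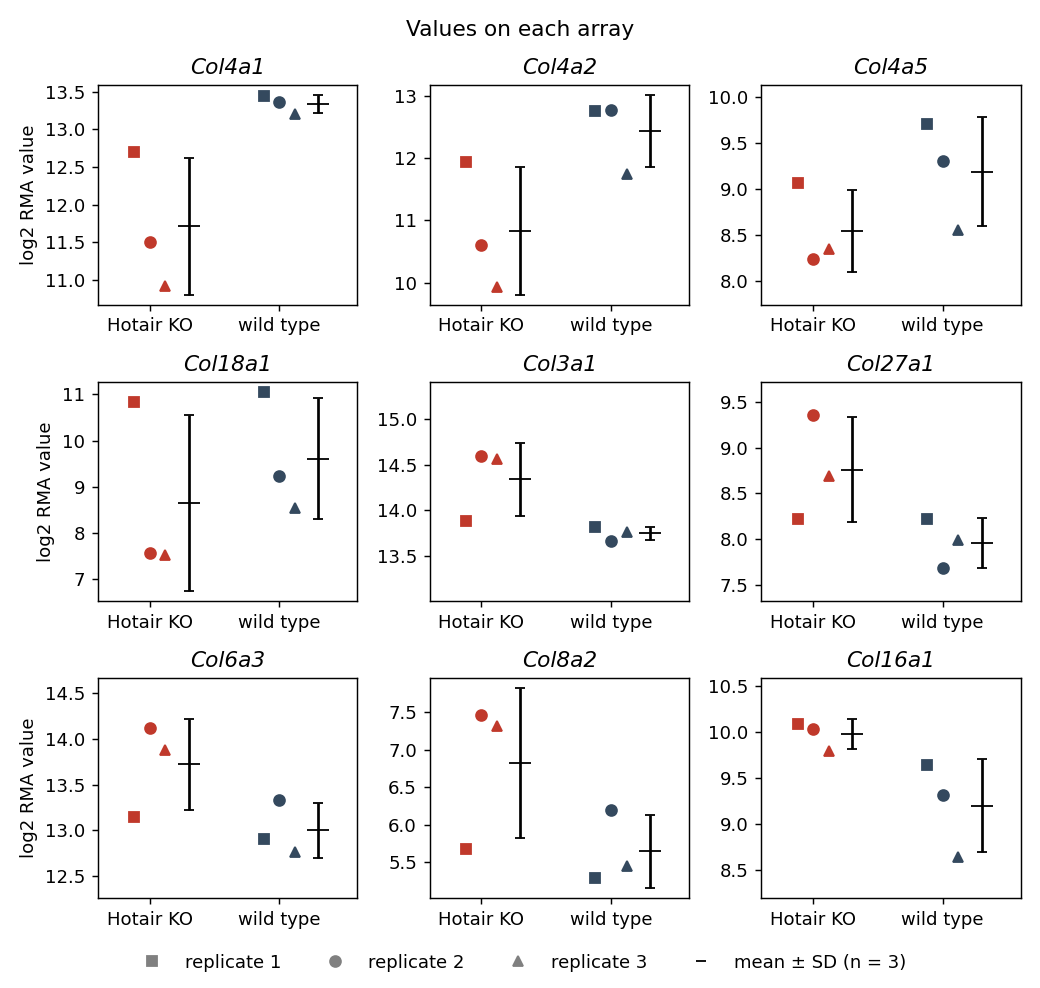
Each point is 1 array on the log2 RMA scale, with a shape for each replicate number, and the bar gives the mean and SD of the 3 arrays of a genotype. The panels show *Col4a1* with no overlap between *Hotair* knockout and wild type, and knockout replicate 1 (square) close to its wild-type partner in *Col3a1*, *Col27a1* and *Col18a1*.

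Most fibrillar chains had small positive differences, several of them within their error. Those of *Col1a2*, *Col11a1*, *Col11a2* and *Col24a1* were smaller than their SE, as was the negative one of *Col5a3*. Positive differences were found for 9 of the 11, and for 9305 of all 18193 genes. Negative ones were found for 2 of the 11, and the class median was 0.19. With arrays centred on their medians it was 0.09, where that of all genes was −0.100. *Col3a1*, the chain of type III collagen in skin and vessels, had 13.88, 14.59 and 14.56 in knockout, against 13.82, 13.67 and 13.76 in wild type. The groups did not overlap, but knockout replicate 1 stood at 0.05 from its wild-type partner, and replicates 2 and 3 at 0.91 and 0.80. *Col3a1* differed by 0.59 ± 0.23 (SE, n = 3 each; limma adjusted p = 0.743), and its second probe set by 0.98. *Col27a1*, a fibrillar chain known from cartilage, had 8.22, 9.36 and 8.69 in knockout, against 8.22, 7.68 and 7.99 in wild type. Here replicate 1 of both genotypes was at the same value to 2 decimals, and the difference was 0.79 ± 0.32 (SE; limma adjusted p = 0.743), with 1.12 for its second probe set. Non-overlap above wild type was seen for *Col3a1*, *Col27a1* and the FACIT gene *Col16a1*, 3 of 42 or 7.14%, against 5.56% of all genes, and below wild type for *Col4a1* and *Col4a4*, 2 of 42 or 4.76%, against 4.38%. These shares are near those of all genes.

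The promoter of *Col3a1*, chr1:45311288-45311587 on the plus strand of GRCm38.p6, is printed as a contrast to the type IV pair, with the letters TATAAA in capitals.
Col3a1: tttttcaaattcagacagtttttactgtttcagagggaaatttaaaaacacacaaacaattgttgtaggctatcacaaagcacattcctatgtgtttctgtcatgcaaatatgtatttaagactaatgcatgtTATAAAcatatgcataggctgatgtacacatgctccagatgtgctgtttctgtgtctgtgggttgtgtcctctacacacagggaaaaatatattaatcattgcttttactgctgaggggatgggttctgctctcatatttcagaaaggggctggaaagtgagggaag

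It has 37.7% G and C, and holds TATAAA but neither CCAAT nor GGGCGG. The TATAAA lies nearer the middle of the window than the start site. Like the other matches, it describes letters and does not show that a factor binds there. Of the 36 windows of the table that belong to 33 of the measured collagen genes, 5 hold TATAAA, 13 hold CCAAT and 22 hold GGGCGG.

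Type I collagen, the bulk collagen of fibroblasts, differed by about its error. *Col1a1* had 12.63, 12.51 and 12.60 in knockout, against 12.31, 12.79 and 11.86 in wild type. All 3 knockout values lay within the wild-type range, and the difference was 0.26 ± 0.25 (SE, n = 3 each). Its second probe set gave −0.02. *Col1a2* had 14.35, 14.68 and 14.65 in knockout, against 14.35, 14.56 and 14.39 in wild type, a difference of 0.13 ± 0.16 (SE).

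The chains of type V collagen, which seeds type I fibrils, did not move together. *Col5a1* had 13.70, 13.31 and 13.11 in knockout, against 13.55, 12.91 and 11.90 in wild type, a difference of 0.59 ± 0.44 (SE, n = 3 each). Wild-type replicate 3 was the low array, and the difference without it was 0.14. Its other 2 probe sets gave 0.17 and −0.27. *Col5a2* had 14.50, 14.22 and 14.05 in knockout, against 14.44, 14.77 and 14.17 in wild type, a difference of −0.21 ± 0.21 (SE), with −0.62 for its second probe set. *Col5a3* had 10.29, 9.00 and 8.32 in knockout, against 10.94, 8.35 and 8.53 in wild type. Replicate 1 of both genotypes was high, and the difference of *Col5a3* was −0.07 ± 0.85 (SE).

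The remaining fibrillar chains were variable or dim. *Col11a1*, a chain of cartilage fibrils, had 7.11, 9.11 and 8.39 in knockout, against 7.49, 9.15 and 7.50 in wild type, a difference of 0.16 ± 0.67 (SE, n = 3 each), smaller than the spread within either genotype. *Col2a1*, the main chain of cartilage, had 5.40, 5.05 and 5.33 in knockout, against 5.10, 4.95 and 4.69 in wild type, a difference of 0.34 ± 0.18 (SE). *Col11a2* had 4.98, 4.58 and 4.64 in knockout, against 4.69, 4.63 and 4.72 in wild type, and *Col24a1* had 3.74, 3.47 and 3.40, against 3.71, 3.19 and 3.12. These 3 genes were below the median gene. *Col11a2*, at 0.05 ± 0.16 (SE), went to −0.06 when arrays were centred on their medians, where the median of all genes was −0.100. Of the 10 measured cartilage markers 1 was above the median gene, and their summed signal was 8.40 to 10.96 in knockout and 9.10 to 10.69 in wild type. The highest knockout sum was that of replicate 1, where *Prg4*, a joint surface protein, had 10.40. Without replicate 1, 3 of the 10 passed, against 14% of all genes, and all of these fell: the matrix protein *Hapln1* differed by −5.07, the transcription factor *Sox5* by −2.93 and *Prg4* by −1.73 (limma adjusted p = 0.00135, 0.00803 and 0.0319). In replicate 1 they were instead higher in knockout, by 2.35, 0.95 and 3.24, and over all 6 arrays none of them passed. The part of these markers in the values of the cartilage collagens was not tested.

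Without replicate 1, 2 of 11 fibrillar genes rose, in a fit that called 7.56% of all genes as higher. *Col3a1* averaged 14.57 in knockout and 13.71 in wild type, a difference of 0.86 ± 0.14 (SE, n = 2 each; limma adjusted p = 0.0228). *Col27a1* rose by 1.19 ± 0.27 (SE, n = 2 each; limma adjusted p = 0.0452). The 9 others did not pass, with *Col1a1* at 0.23 ± 0.32 and *Col5a1* at 0.80 ± 0.35. Other fibroblast and tendon markers differed in the same fit. Of the 9 fibroblast markers 4 passed, against 14% of all genes, and all of these rose: the proteoglycans *Lum* by 3.12 and *Dcn* by 4.35, the surface protein *Thy1* by 4.50 and the protease *Fap* by 4.10 (limma adjusted p = 0.0105, 0.0468, 0.0258 and 0.0131). In replicate 1, *Lum* and *Dcn* were higher in knockout, by 1.67 and 0.60, while *Thy1* and *Fap* were lower, at −0.44 and −1.12. Over all 6 arrays none of the 4 passed. The others of the 9 did not pass without replicate 1. Of these *Vim*, *Fn1* and *S100a4* were at −0.24, −0.25 and −0.21, and *Pdgfra* and *Pdgfrb* at 1.81 and 0.24. The 9 summed to 16.22 to 16.30 in knockout and 16.11 to 16.30 in wild type. The 4 tendon markers did not move together. *Tnmd*, a membrane protein of tendon cells, rose by 4.49 (limma adjusted p = 0.0227), while *Mkx*, a transcription factor of that lineage, fell by 1.90 (limma adjusted p = 0.0187). *Scx*, another such factor, was at −1.88 and the matrix protein *Thbs4* at 0.17, and neither passed. In replicate 1 both *Tnmd* and *Mkx* were higher in knockout, by 1.37 and 0.90. The tendon sum was 10.56 to 11.72 in knockout and 8.85 to 9.39 in wild type, and *Thbs4*, at 10.97, was the brightest of the 4 on the first knockout array. On knockout arrays 2 and 3 the brightest was *Tnmd*, at 10.43 and 10.69, with *Scx* at 6.20 and 5.83 and *Mkx* at 5.18 and 5.93. The part of these markers in the fibrillar values was not tested.

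**Figure D3:**
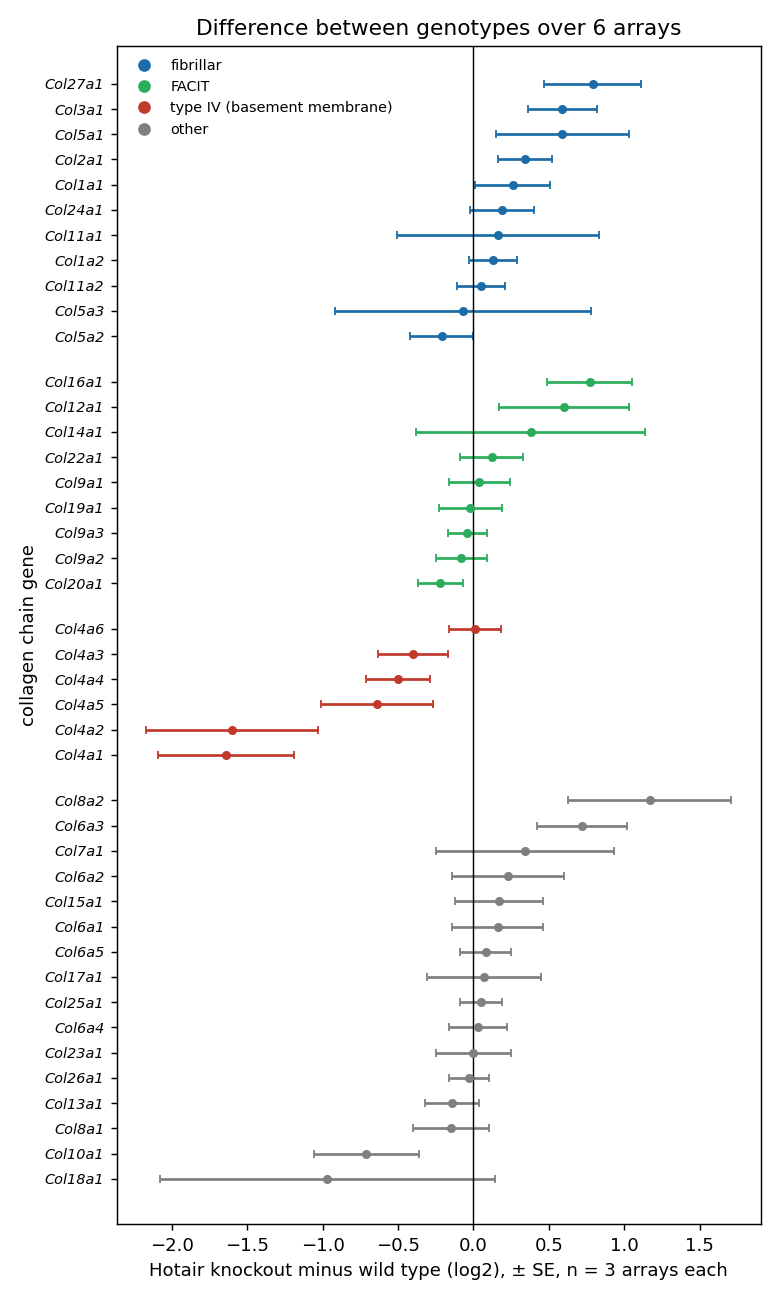
Points give the limma difference of each gene, *Hotair* knockout minus wild type on the log2 scale, with its SE over 3 arrays each, and colours give the class. *Col4a1* and *Col4a2* are near −1.6, and *Col8a2*, a dim gene, is the highest at 1.17.

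The FACIT class had a median difference of 0.04, with 5 genes above 0 and 4 below. This median was −0.02 when the values were quantile normalised again. It was −0.07 when arrays were centred on their medians, where that of all genes was −0.100. Only *Col12a1* and *Col16a1* of the 9 were above the median gene. *Col16a1*, a chain found near small fibrils of the dermis, had 10.09, 10.04 and 9.80 in knockout, against 9.64, 9.32 and 8.64 in wild type. The groups did not overlap, each same-numbered pair was higher in knockout, and the difference was 0.77 ± 0.28 (SE, n = 3 each; limma adjusted p = 0.743). Without replicate 1 it was 0.94 ± 0.26 (SE, n = 2 each) and did not pass (limma adjusted p = 0.0798). *Col12a1*, which binds type I fibrils in tendon and skin, had 11.30, 11.53 and 10.52 in knockout, against 10.71, 11.08 and 9.75 in wild type. Replicate 3 was the low array of both genotypes, and within replicate numbers *Col12a1* was higher in knockout by 0.59, 0.44 and 0.77. Its difference was 0.60 ± 0.43 (SE; limma adjusted p = 0.876), and with the replicate block the SE was 0.16, but it did not pass (limma adjusted p = 0.424). It was 0.22 without wild-type replicate 3, 0.39 without knockout replicate 2, 0.15 with array weights and 0.32 as the mean of its 4 probe sets. *Col9a1* had 5.60, 5.91 and 6.06 in knockout and 5.70, 6.11 and 5.65 in wild type, and *Col9a3* had 5.77, 5.80 and 5.74 in knockout and 5.96, 5.80 and 5.69 in wild type. Neither of these type IX chains, which coat cartilage fibrils, differed beyond its SE. The other FACIT genes, *Col9a2*, *Col14a1*, *Col19a1*, *Col20a1* and *Col22a1*, were dim, with differences between −0.22 and 0.38. The highest of these, *Col14a1*, rested on knockout replicate 1, with 6.49 there, 3.90 and 4.29 on the other knockout arrays and 5.35, 3.93 and 4.28 in wild type.

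Type VI collagen forms microfilaments from 3 classical chains. *Col6a3*, the long chain of the molecule, had 13.15, 14.12 and 13.88 in knockout, against 12.91, 13.33 and 12.76 in wild type. It was higher in knockout within each replicate number, by 0.25, 0.79 and 1.12, and differed by 0.72 ± 0.30 (SE, n = 3 each; limma adjusted p = 0.746). *Col6a1* had 12.98, 12.29 and 12.22 in knockout, against 12.50, 12.63 and 11.88 in wild type, a difference of 0.16 ± 0.30 (SE). *Col6a2*, its neighbour on the chromosome, had 13.52, 12.28 and 12.55 in knockout, against 12.83, 12.61 and 12.22 in wild type, a difference of 0.23 ± 0.37 (SE). For *Col6a1* and *Col6a2*, knockout replicate 1 was the highest of the 6 arrays. Without replicate 1, *Col6a3* was at 0.96 ± 0.24 (SE, n = 2 each; limma adjusted p = 0.0578) and *Col6a1* at 0.00 ± 0.27. Whether *Col6a3* differed from its partner chains was not tested. *Col6a4* and *Col6a5* were dim, at 0.03 ± 0.19 and 0.08 ± 0.17 (SE).

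**Figure D4:**
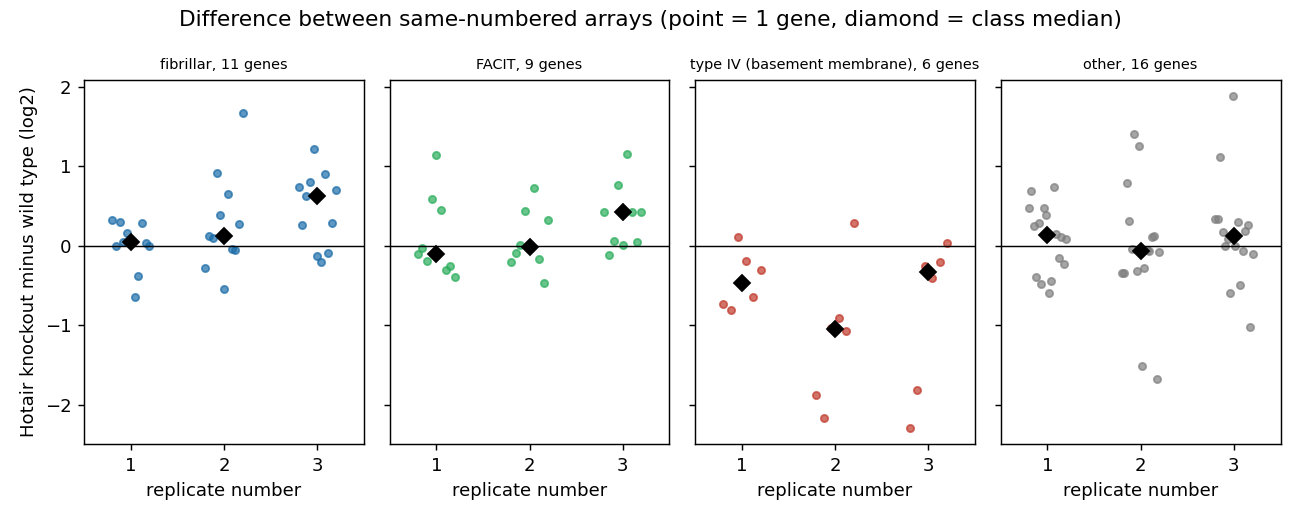
Each point is 1 gene, as the *Hotair* knockout array minus the wild-type array of the same replicate number, and diamonds give the median of the class. The type IV medians are −0.47, −1.05 and −0.33 in replicates 1, 2 and 3, while the fibrillar medians are 0.05, 0.12 and 0.63.

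The other collagens had a median of 0.06 over 16 genes, with 11 above 0 and 5 below. With arrays centred on their medians the class median was −0.05, where that of all genes was −0.100. *Col18a1*, which yields endostatin and belongs to the basement membrane zone, varied most with the replicate. It had 10.84, 7.56 and 7.51 in knockout, against 11.06, 9.23 and 8.53 in wild type, so that replicate 1 of both genotypes stood above the other 4 arrays. Its difference was −0.97 ± 1.11 (SE, n = 3 each; limma adjusted p = 0.962), −2.07 with the first knockout array left out and −0.25 with the first wild-type array left out. Without replicate 1 of both genotypes it fell by 1.35 ± 0.26 (SE, n = 2 each; limma adjusted p = 0.031). *Col6a1* and *Col6a2* lie close to *Col18a1* on chromosome 10 and were at 0.00 ± 0.27 and −0.00 ± 0.20 in that fit. *Col15a1*, the related chain of type XV, was dim at 0.17 ± 0.29 (SE) over 6 arrays.

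*Col8a2* and *Col8a1* encode the short chains of type VIII collagen, which forms a lattice in the vessel wall and cornea. *Col8a2* was dim, with a mean of 6.23 over the 6 arrays. It had 5.67, 7.46 and 7.32 in knockout, against 5.29, 6.20 and 5.45 in wild type. It was higher in knockout within each replicate number, and knockout replicate 1 lay below wild-type replicate 2. The difference of 1.17 ± 0.54 (SE, n = 3 each; limma adjusted p = 0.766) became 1.57 ± 0.27 without replicate 1 and passed there (SE, n = 2 each; limma adjusted p = 0.0252). *Col8a1* had 10.59, 10.46 and 10.41 in knockout, against 10.12, 10.79 and 11.00 in wild type, a difference of −0.15 ± 0.25 (SE). It was higher in knockout in replicate 1 (0.47) and lower in replicates 2 and 3 (−0.32 and −0.59).

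*Col10a1*, the chain of hypertrophic cartilage, was dim and had 4.84, 4.59 and 4.75 in knockout, against 5.43, 6.10 and 4.75 in wild type. Its difference was −0.71 ± 0.35 (SE, n = 3 each; limma adjusted p = 0.774), but in replicate 3 it was −0.01. *Col7a1*, which anchors the epidermis to the dermis, had 8.41, 8.47 and 7.29 in knockout, against 8.88, 7.07 and 7.21 in wild type, a difference of 0.34 ± 0.59 (SE). The transmembrane chains *Col13a1*, *Col17a1*, *Col23a1* and *Col25a1* and the chain *Col26a1* had differences between −0.14 and 0.07. A second probe set of *Col25a1* was at 0.96, with 3.87, 6.58 and 6.16 in knockout and 4.37, 4.50 and 4.86 in wild type, whereas the brighter one was at 0.05. The annotation named no probe set for *Col6a6* or *Col28a1* alone, so these chains have no values here.

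Without replicate 1, 6 of 42 collagen genes passed, or 14.3%, against 14% of all genes. The 3 that rose were *Col3a1*, *Col27a1* and *Col8a2*, 7.14% against 7.56%, and the 3 that fell were *Col4a1*, *Col4a2* and *Col18a1*, 7.14% against 6.41%. The share of collagen genes called was thus near that of all genes. Fitted over all probe sets, this comparison called 3 of 82 collagen probe sets, 1 each of *Col25a1*, *Col3a1* and *Col4a1*, against 4.08% of all probe sets. With array weights on all 6 arrays, 5 collagen genes passed, or 11.9%, against 11.5% of all genes: *Col3a1* and *Col27a1* on the higher side, against 6.7% of all genes, and *Col4a1*, *Col4a2* and *Col4a4* on the lower side, against 4.85%. These weights were 0.329 and 0.244 for replicate 1 of knockout and wild type and 1.04 to 3.18 for the others, so they too gave replicate 1 little say.

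The probe sets of a gene read the same 6 samples on the same arrays, so their agreement is no replicate of the genotype difference. Of the 42 genes 27 had more than 1 probe set, and for 15 of these all probe sets had differences of the same sign. The share over all genes is not given here. A shared sign was found for *Col3a1*, *Col27a1*, *Col4a1*, *Col4a4*, *Col4a5* and *Col18a1*, and also for *Col25a1*, where the sizes were unlike (0.05 and 0.96). It was not found for *Col1a1*, *Col5a1* and *Col12a1*.

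**Figure D5:**
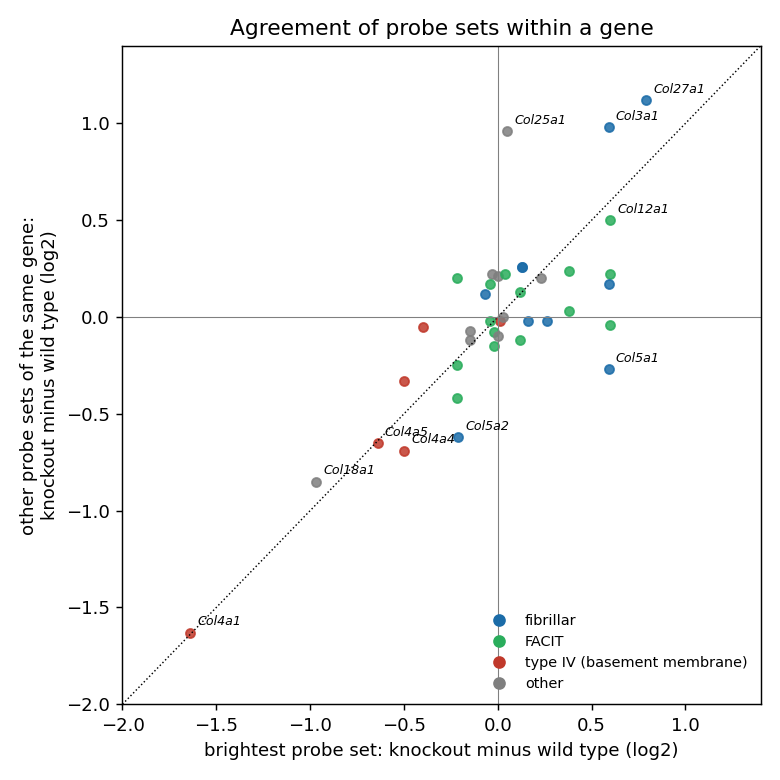
Each point sets 1 further probe set of a gene (vertical) against its brightest probe set (horizontal), both as *Hotair* knockout minus wild type on the log2 scale, and the dotted line marks equal values. *Col4a1* (−1.64 and −1.63), *Col3a1* and *Col27a1* keep their sign, and *Col25a1* (0.05 and 0.96) lies off the line.

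Chains are modified, folded, trimmed and cross-linked by enzymes whose genes were listed separately. Of 49 such genes, receptors included, 44 were measured, 22 were higher and 22 lower, and 0 passed over the 6 arrays. The median difference was 0.03. At an unadjusted p under 0.05 there were 3 higher and 4 lower, where 4.01% and 2.67% of all genes were. Without replicate 1, 7 rose and 2 fell, 20.45% against 14% of all genes.

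Hydroxylation of the chains came first by role. *Plod2*, the lysyl hydroxylase that sets the type of cross-link, had 11.08, 8.83 and 8.87 in knockout, against 10.70, 11.34 and 13.00 in wild type. In replicate 1 it was higher in knockout by 0.38, and in replicates 2 and 3 lower, at −2.51 and −4.13. The difference was −2.09 ± 0.84 (SE, n = 3 each; limma adjusted p = 0.743), and without replicate 1 it fell by 3.32 ± 0.53 (SE, n = 2 each; limma adjusted p = 0.0204). *Plod1* was at −0.34 ± 0.18 and the prolyl hydroxylase subunits *P4ha1* and *P4ha2* at −0.53 ± 0.38 and −0.04 ± 0.78 (SE). *Plod3*, a further lysyl hydroxylase, was at 0.69 ± 0.41 (SE) and rose by 0.93 without replicate 1 (limma adjusted p = 0.0301). *P3h2*, which hydroxylates prolines of type IV chains, had 6.02, 5.21 and 5.96 in knockout, against 6.28, 6.29 and 6.93 in wild type, with no overlap and a difference of −0.77 ± 0.30 (SE). The sugar transferase *Colgalt2* was at −0.40 ± 0.14 (SE). Both *P3h2* and *Colgalt2* were dim. Of 13 modifying enzymes, 9 were below 0.

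Among chaperones and export factors, 7 of 10 were above 0. *Serpinh1*, the collagen chaperone HSP47, had 13.34, 13.40 and 13.50 in knockout, against 13.31, 13.17 and 12.84 in wild type. The groups did not overlap, with replicate 1 of both genotypes nearly equal, and the difference was 0.31 ± 0.17 (SE, n = 3 each; limma adjusted p = 0.809). *Fkbp7*, a prolyl isomerase of the endoplasmic reticulum, had 11.32, 11.48 and 11.63 in knockout, against 10.83, 10.68 and 9.77 in wild type, a difference of 1.05 ± 0.31 (SE; limma adjusted p = 0.743). Without replicate 1, *Creb3l1*, a transcription factor of collagen secretion, rose by 1.14 (limma adjusted p = 0.0349) and *Sec24d*, a coat protein of transport vesicles, by 0.90 (limma adjusted p = 0.0254). In replicate 1 they differed by 0.17 and −0.47.

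Processing, cross-linking and receptor genes gave no shared direction. *Pcolce*, which enhances the trimming of procollagen, had 13.54, 13.49 and 13.78 in knockout, against 13.21, 13.40 and 12.56 in wild type, a difference of 0.55 ± 0.25 (SE, n = 3 each; limma adjusted p = 0.766). The trimming protease *Bmp1* was at 0.21 ± 0.58 and *Adamts3*, which removes amino-terminal propeptides, at 1.17 ± 0.42 (SE). Without replicate 1, *Adamts3* rose by 1.68 (limma adjusted p = 0.0353), *Pcolce2* rose by 1.53 (limma adjusted p = 0.0449), and the protease *Tll1* fell by 1.89 (limma adjusted p = 0.0414). In replicate 1 they differed by 0.15, −0.68 and 0.01. Of these genes *Adamts3* and *Tll1* were dim. The cross-linking enzymes *Lox* and *Loxl1* were at −0.09 ± 0.35 and −0.13 ± 0.46, and *Loxl4* at −0.77 ± 0.30 (SE). *Mrc2*, the receptor that takes up collagen for degradation, had 10.55, 10.76 and 10.85 in knockout, against 10.36, 9.64 and 9.33 in wild type, with no overlap and a difference of 0.94 ± 0.29 (SE; limma adjusted p = 0.743). It rose by 1.32 without replicate 1 (limma adjusted p = 0.0125), as did *Itga1*, a collagen-binding integrin that was dim, by 0.96 (limma adjusted p = 0.0324). *Ddr2*, a receptor kinase for fibrillar collagen, was at 0.96 ± 0.73 (SE).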

How the data were processed

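Total RNA of neonatal tail tip fibroblasts was hybridised to Affymetrix mouse arrays, 1 per sample. The authors deposited log2 values per probe set. The submitters' processing notes name RMA and R 2.11.1. RMA gives all arrays the same spread of values, so a change in total RNA cannot be seen. Which probe set definition was used is not given in the sources used here.

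Gene names came from the platform's annotation, which gives 34945 of 45037 probe sets 1 gene, 932 several and 9160 none, and 64 controls were left out. The log2 values of 18193 genes were fitted by genotype in limma (version 3.58.1, R 4.3.3), and p-values were adjusted by Benjamini-Hochberg, at 0.05. The few arrays limit the precision: 3 against 3 gives an exact permutation p of at least 0.1. Both genotypes carry replicate numbers. The numbers were taken as pairs. After the mean of each genotype was removed, arrays of the same number correlated at 0.51, 0.39 and 0.35. Knockout replicate 2 correlated better with wild-type replicate 3 (0.43), and knockout replicate 3 with wild-type replicate 2 was at 0.28. Replicate 1 stood apart in both genotypes, and replicates 2 and 3 correlated positively under either pairing. These values therefore cannot show that 2 belongs with 2 and 3 with 3. Members and lists, the other genes of the collagen pathway included, were chosen with earlier results of these data known. Every fibrillar and type IV chain, *Col6a1* to *Col6a3*, the brightest 4 FACIT and 6 other genes and the 6 smallest p in each direction are given on all arrays. Of the pathway list, 10 measured genes chosen by name and, for either direction, the 3 of lowest p are named, and genes of that list called without replicate 1 were added after their values were seen. Probe set signal ranked genes for naming and set which are called dim, and no RNA amount was compared between genes. Promoter sequences are from RefSeq, GRCm38.p6.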

Additional observations from a re-analysis of the deposited data

How the results depend on the processing

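Alternatives were the replicate block, a term for replicate 1, array weights, eBayes with trend and robust, only genes above the median level, repeated normalisation, all probe sets, the mean of a gene's probe sets, a looser threshold and leaving out arrays. With the replicate block, 0 collagen genes and 0 of all genes passed, and the block changed no call. Array weights called 5 collagen genes, 10 genes of the synthesis and receptor list and 2101 of all genes, and leaving out replicate number 1 of both genotypes called 6, 9 and 2542. At an unadjusted p under 0.05 there were 4 collagen genes and 1216 of all genes. Leaving out 1 array called 0 to 1 collagen genes and 0 to 87 of all genes, the upper values without knockout replicate 1, and moved the fibrillar median to between 0.08 and 0.38. Keeping genes above the median level moved the FACIT median to 0.69 and the type IV median to −1.60, since it left 2 and 3 genes. Centring arrays on their medians moved the median of all genes to −0.100. Over the 29 named genes and their alternatives, 12 results passed that did not in all 6 arrays, 379 kept direction and call, and 34 turned sign. Signs turned for genes with differences below their error, and the cause was not tested: with array weights *Col11a1* (−0.15), *Col11a2* (−0.01), *Col5a3* (0.15), *Col6a1* (−0.15) and *Col9a1* (−0.00), and without replicate number 1 *Col11a2* (−0.07), *Col5a3* (0.22), *Col6a2* (−0.00) and *Col9a3* (0.03). Signs also turned with centring for *Col11a2* (−0.06), *Col4a6* (−0.10) and *Col9a1* (−0.07), with repeated normalisation for *Col9a1* (−0.02), and with the mean of probe sets for *Col4a6* (−0.01), *Col5a3* (0.02) and *Col9a3* (0.04). Leaving out 1 array gave ranges of −0.30 to 0.71 for *Col11a1*, −0.07 to 0.13 for *Col11a2*, −0.10 to 0.11 for *Col4a6*, −0.61 to 0.76 for *Col5a3*, −0.08 to 0.31 for *Col6a1*, −0.14 to 0.48 for *Col6a2*, −0.41 to 0.03 for *Col8a1*, −0.07 to 0.18 for *Col9a1* and −0.10 to 0.03 for *Col9a3*. Over these single-array fits *Col4a1* ranged from −2.13 to −1.24, *Col4a2* from −2.16 to −1.15, *Col3a1* from 0.47 to 0.82, *Col27a1* from 0.49 to 1.06 and *Col12a1* from 0.22 to 0.90.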
